A study of Mus musculus with 21 samples.

Results

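The TWIST1-TCF3 dimer line was compared with the cells it was made from. Its samples were chosen by their titles: the 3 titled as induced TWIST1-TCF3 dimer and the 3 titled A2loxCre, together 6 of the 21 samples and 2 of the 7 groups in the series. All 48321 gene symbols of the count tables were examined. The samples are embryoid bodies, balls of mouse embryonic stem cells left to differentiate, collected on day 3 of differentiation from A2loxCre cells, whose strain is labelled C57BL/6. In the TCF3 dimer line, a coding sequence that joins TWIST1 to TCF3 was integrated behind a promoter that doxycycline switches on, and doxycycline was given for the 16 h before collection. The parental line carries no TWIST1 construct and received doxycycline as well. A second control, the uninduced monomer line, carries an integrated Twist1 monomer and received no doxycycline. It therefore differs from the parental line both in having a TWIST1 construct and in lacking the drug. The TCF4 dimer and TCF12 dimer lines, both given doxycycline, join TWIST1 to the other 2 E-proteins. The remaining groups are titled induced TWIST1 monomer and induced TWIST1 homodimer, and also received doxycycline for 16 h. They enter only where all groups of the series are shown. The labels give no number of clones per line, so a line may be a single clone, and a property of a clone and the effect of its construct cannot be told apart. Nothing in the labels says that the 3 samples of a line came from separate cultures, and the p-values measure the spread between these samples, which may be technical.

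TWIST1 is a basic helix-loop-helix (bHLH) transcription factor of the mesoderm and the cranial neural crest, and is known for driving the epithelial-to-mesenchymal transition. It binds DNA as a dimer, either with itself or with an E-protein such as TCF3, TCF4 or TCF12, at a short motif called the E-box. ID proteins are helix-loop-helix proteins without a DNA-binding region that take up E-proteins and keep them off DNA. Joining TWIST1 to 1 partner fixes which dimer forms.

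The TCF3 dimer libraries held 11101696 to 11928753 counts and the parental libraries 9067743 to 9699851. Over all 21 libraries the totals ran from 6648842 to 15999693. A total of 3 counts, used as the floor of detection, equals 0.252 to 0.270 CPM in a TCF3 dimer library and 0.309 to 0.331 CPM in a parental library. These floors are taken from raw library totals, without the scaling applied to all other CPM values, which is described next. CPM is a count scaled to library size after TMM scaling (a correction for library composition), intervals and floors cover counting error only, and CPM values compare samples for a gene and not genes with each other. Log2 fold changes are given ± their standard error, and a gene passed where the adjusted p of edgeR's quasi-likelihood test was under 0.05. Sample 1 labelled TCF12 dimer and sample 1 labelled uninduced monomer stood apart from the other samples of their groups, with a chi-square per degree of freedom of 94.5 and 115.9 and of 39.1 and 43.9 against the other two, where all other pairs of a group lay between 1.46 and 4.08. The counts of genes in the comparisons that use them are also given without them. The measurements are of bulk RNA, in which fewer cells of a type and less RNA per cell cannot be told apart. Whether counting used the strand is not given in the sources used here, so genes that overlap an antisense partner, such as Evx1 and Peg13, may carry its reads.

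Twist1 rose in the line that carries the joined construct, while Tcf3 did not. Twist1 (GRCm38 chr12:33957671-33959829, plus strand, in GENCODE M21) stood at 8.94, 8.02 and 7.37 CPM in the 3 parental samples and at 56.6, 52.3 and 56.5 CPM in the 3 TCF3 dimer samples. All TCF3 dimer samples lay above all parental samples, and the log2 fold change was 2.76 ± 0.09 (adjusted p = 3.05e-16). Tcf3, the partner in the construct, stood at 173, 162 and 167 CPM in the parental samples and at 151, 152 and 159 CPM in the libraries labelled TCF3 dimer. The labelled libraries were all lower for Tcf3, by a log2 fold change of -0.13 ± 0.046 (adjusted p = 0.0244), a call that was not made by the fit on all 21 samples (adjusted p = 0.239) or by DESeq2 (adjusted p = 0.0686), and that was lost when TCF3 dimer sample 1 or 2 or parental sample 1 or 3 was left out. It was also lost with library size as the only scaling, with no filter on low counts and without chromosome 11 genes. The Tcf3 count therefore goes against the label, whereas the Twist1 count goes with it. Whether the counts include the construct's Tcf3 sequence is not given in the sources used here. Every direction below refers to the libraries labelled TCF3 dimer. Tcf4, the partner of another line, was at 52.1 CPM against 47.5 in the parental samples and 330.4 in the TCF4 dimer samples, and its difference from parental did not pass (0.12, adjusted p = 0.251). Tcf12, which encodes another E-protein, rose from 66.1 ± 3.03 to 104 ± 14.7 CPM (SD, n = 3; log2 fold change 0.65 ± 0.075). Hprt, the X-linked gene beside which A2lox constructs are commonly placed, fell from 86.1, 81.1 and 81.2 CPM in the parental samples to 9.92, 8.12 and 9.68 CPM. Its mean was also low in the uninduced monomer line (3.81 CPM), so both of these lines with a TWIST1 construct were below the parental line at this gene.

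Against the parental line, 3372 of 13601 tested genes were higher (24.8%) and 3302 were lower (24.3%). These shares are the background for the counts of list members against that line given below. A gene with almost no counts in either group passed the filter on low counts through the other group alone. Such a gene could be called in a single direction only, so list counts that include it are descriptions. At least 2-fold differences were found for 767 higher genes (5.64%) and 362 lower genes (2.66%). Against the uninduced monomer line, 3332 of 13595 genes were higher (24.5%) and 3057 lower (22.5%), of which 847 (6.23%) and 237 (1.74%) changed at least 2-fold. Without sample 1 of that line, 3110 of 13985 genes were higher (22.2%) and 2848 lower (20.4%), with 920 (6.58%) and 261 (1.87%) at least 2-fold. Among the named and listed genes tested both ways, 471 of 627 passed with that sample; 454 of these passed without it, all 454 in the same direction, 17 did not, and 5 others did. With library size as the only scaling, 64.4% of the genes passing against the uninduced monomer line were higher, in place of 52.2%, and in the fit on the 20 samples without TCF12 dimer sample 1 the balance turned to 48%. Groups of 3 samples that do not overlap were common: every TCF3 dimer sample lay above every parental sample in 29.5% of tested genes and below in 26.6%, and the shares against the uninduced monomer line were 26.9% and 28.8%. The comparisons in this account share the TCF3 dimer samples, so their values are set side by side for each gene and are not counted as separate evidence.

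The 15 genes with the largest rises had low means in both control lines, from 0 to 5.13 CPM in the parental and from 0 to 5.86 CPM in the uninduced monomer line, with Cd34 the highest in each. Lax1, an adaptor protein of lymphocyte signalling (chr1:133679091-133690108, minus strand), had 0 counts in all 3 parental samples and stood at 5.87, 5.65 and 5.86 CPM in the TCF3 dimer samples, at least 55.2-fold higher against a floor of 3 counts over the group. The groups did not overlap, and Lax1 varied little among the dimer samples.

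Cd34, a surface sialomucin of blood progenitors and endothelium (chr1:194938819-194961279, plus strand), stood at 5.45, 5.20 and 4.74 CPM in the parental and 153, 112 and 134 CPM in the TCF3 dimer samples, a log2 fold change of 4.68 ± 0.12 (adjusted p = 7.81e-18). Epha3, a receptor for ephrins, rose from 0.872, 0.325 and 0.101 to 21.9, 17.3 and 19.9 CPM (5.49 ± 0.26). Tgfbi, a secreted matrix protein induced by TGF-beta, rose from 0.872, 1.19 and 1.21 to 46.95, 33.3 and 38.5 CPM (5.15 ± 0.19). For these 3 genes the lowest dimer sample was far above the highest parental sample. Fbln5, an elastic-fibre protein, rose from 0.274 ± 0.287 to 18.9 ± 4.26 CPM (SD, n = 3; 6.00 ± 0.32). Serpinf1, a secreted serpin also called PEDF, rose from 1.74, 1.19 and 2.52 to 78.9, 38.2 and 46.3 CPM (4.87 ± 0.30) and was the most uneven of the group, with dimer sample 1 well above the other two. Others of the 15 with the largest rises were Tmem132c (6.29 ± 0.38), Slc8a3, a sodium-calcium exchanger (6.16 ± 0.39), Snai2 (5.34 ± 0.45), Cygb, cytoglobin (5.25 ± 0.31), H19 (4.87 ± 0.26), Tril, a Toll-like receptor partner (4.87 ± 0.18), Rftn2 (4.72 ± 0.36) and Frmpd3 (4.50 ± 0.38). All 15 passed against the uninduced monomer line too. There Lax1 was again at 0 counts (at least 53-fold higher in the dimer line), and Slc8a3 (2 counts) and Tmem132c (3 counts) gave ratios of 186 and 111 with 95% counting intervals from 51.3 to 1540 and from 37.6 to 539. The log2 fold changes of the other 12 ran from 3.05 for Snai2 to 6.30 for Fbln5. In each of the 15, dimer sample 1 was the highest of the 3 dimer samples, whereas over all 13601 tested genes it was the highest in 36.2%.

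**Figure D1:**
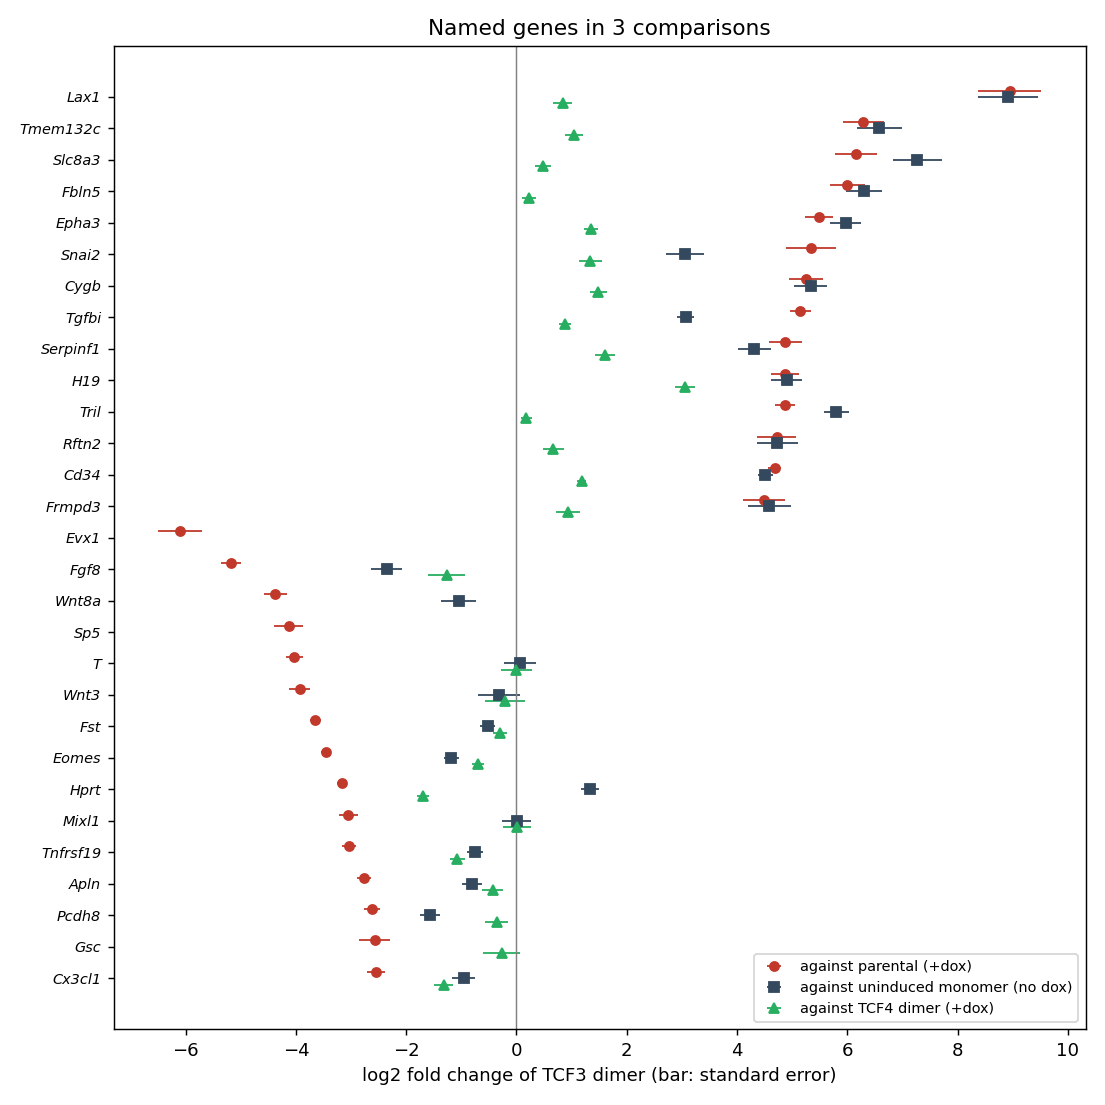
Log2 fold change (x axis; bars, standard error) of genes named for the largest differences from the parental line (y axis), against the parental line, the uninduced monomer line and the TCF4 dimer line. The higher genes shown are higher against both controls, whereas several lower genes, T and Mixl1 among them, lie near 0 against the uninduced monomer line; the values of Lax1 against both controls are fitted against groups at 0 counts and are no bounds, and points are missing where a gene was not tested.

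Promoter sequence is shown for Lax1 because its promoter holds a pair of E-boxes at the spacing known from TWIST1 binding, and Lax1 had no count in either control line. An E-box was searched as CANNTG, and the pair as CANNTG, 5 bases of any kind and CANNTG, which contains an E-box at each end and reads the same pattern on both strands. The windows are RefSeq promoters of GRCm38.p6, from 250 bases before to 50 bases after a gene's start. The table has 2 overlapping windows for Lax1. The 250 bases before the start that lies farther upstream (chr1:133690109-133690358, minus strand, GRCm38.p6) read as follows, with the E-boxes of the pair in capitals.
Lax1: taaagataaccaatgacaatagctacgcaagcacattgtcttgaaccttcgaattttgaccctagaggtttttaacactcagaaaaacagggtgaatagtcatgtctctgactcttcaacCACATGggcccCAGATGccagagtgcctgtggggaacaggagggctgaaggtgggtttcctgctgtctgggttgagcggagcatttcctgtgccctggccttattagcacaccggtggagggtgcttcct

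The pair also occurs before other genes of the lists described here, on both sides of the comparison. It lies before Hif1a too, a listed gene whose difference did not pass (log2 fold change 0.026, adjusted p = 0.634). Hand2 and Bmp4 were higher in the TCF3 dimer line and Rab25 and Cer1 were lower. Their sites are shown to set the letters side by side, E-boxes in capitals.
Hand2 (chr8:57320737-57320753, plus strand, 246 bases before the start): CATCTGttaaaCACTTG
Bmp4 (chr14:46390841-46390857, minus strand, 188 bases before the start): CACGTGgtcccCAGGTG
Rab25 (chr3:88548327-88548343, minus strand, 64 bases before the start): CACCTGtgcccCAGGTG
Cer1 (chr4:82885207-82885223, minus strand, 72 bases before the start): CACCTGctgacCACCTG

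A single E-box was common everywhere. It was found in 65.9% of the 707 promoters of genes at least 2-fold higher, 72.4% of the 308 promoters of genes at least 2-fold lower and 63.8% of the 12843 promoters of all tested genes. The pair was found in 11 (1.56%), 4 (1.3%) and 58 (0.452%) of these promoters, respectively. Both overlapping windows of Lax1 are among the 11 and hold the same site. By gene, 10 of 548 higher genes with a promoter in the table held it (1.82%), as did 4 of 234 lower genes (1.71%). Besides Rab25 and Cer1, the lower genes with a pair were Jakmip1 and Prlr, which are named after their values were seen. Over all tested genes 56 of 9975 held it (0.561%), so the share was above that of all genes in the higher and in the lower set alike. A match is a description of letters and not of binding. The mean GC content of the 3 sets of promoters was 60.8%, 59% and 61%. Of the 15 named higher genes, Lax1 was the one with a pair in its windows.

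All 4 Id genes rose together with Twist1. Id1 stood at 32.7, 31.2 and 30.6 CPM in the parental and 402, 271 and 307 CPM in the TCF3 dimer samples (3.36 ± 0.11, adjusted p = 2.86e-16). Id2 rose from 31.2, 26.2 and 25.8 to 255, 169.7 and 183 CPM (2.86 ± 0.12), and Id3 rose from 40.8, 35.7 and 40.3 to 288, 217 and 226 CPM (2.63 ± 0.088). The 3 dimer samples lay above the 3 parental samples for each of the 4 genes, with sample 1 the highest. Id4 rose from 3.07 ± 0.819 to 29.5 ± 7.90 CPM (SD, n = 3; 3.25 ± 0.20). The rises of Id1 to Id4 against the uninduced monomer line were 3.50, 2.61, 3.57 and 3.43, in that order, and without its sample 1 they were 3.49, 2.61, 3.57 and 3.42. Id genes are also known targets of BMP signalling.

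Transcription factors of the epithelial-to-mesenchymal transition rose as a group: 6 of the 7 tested of a list of 9 were at least 2-fold higher, where 5.64% of all genes were, and the list median was 2.76. Twist1, which the construct itself carries, is among these 6, and the list median is its own log2 fold change. Snai1, a zinc-finger repressor of E-cadherin, stood at 4.80, 6.40 and 5.55 CPM in the parental and 60.6, 34.2 and 41.5 CPM in the dimer samples (3.01 ± 0.19, adjusted p = 1.76e-11). Snai2, its relative in neural crest, rose from 0.327, 0 and 0.202 to 10.7, 5.38 and 6.91 CPM (5.34 ± 0.45). Neither gene overlapped between the groups, although Snai2 remained at a low level. Zeb1 rose from 1.33 ± 0.264 to 12.1 ± 2.23 CPM (3.15 ± 0.21), and Zeb2 from 9.18 ± 1.76 to 27.7 ± 5.30 CPM (1.58 ± 0.14), both being repressors of epithelial genes. Prrx1, a homeobox factor of limb and craniofacial mesenchyme, rose from 0.872, 0.867 and 1.21 to 6.70, 3.00 and 4.88 CPM (2.28 ± 0.32). Snai3 fell, at a low level (-0.60 ± 0.24, adjusted p = 0.0474), a call that the fit on all 21 samples (0.0544) and DESeq2 (0.192) did not make. The same 6 genes, Twist1 among them, were at least 2-fold higher than in the uninduced monomer line (median 3.05, and 3.25 without its sample 1), while Snai3 did not pass there (-0.22, adjusted p = 0.496).

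**Figure D2:**
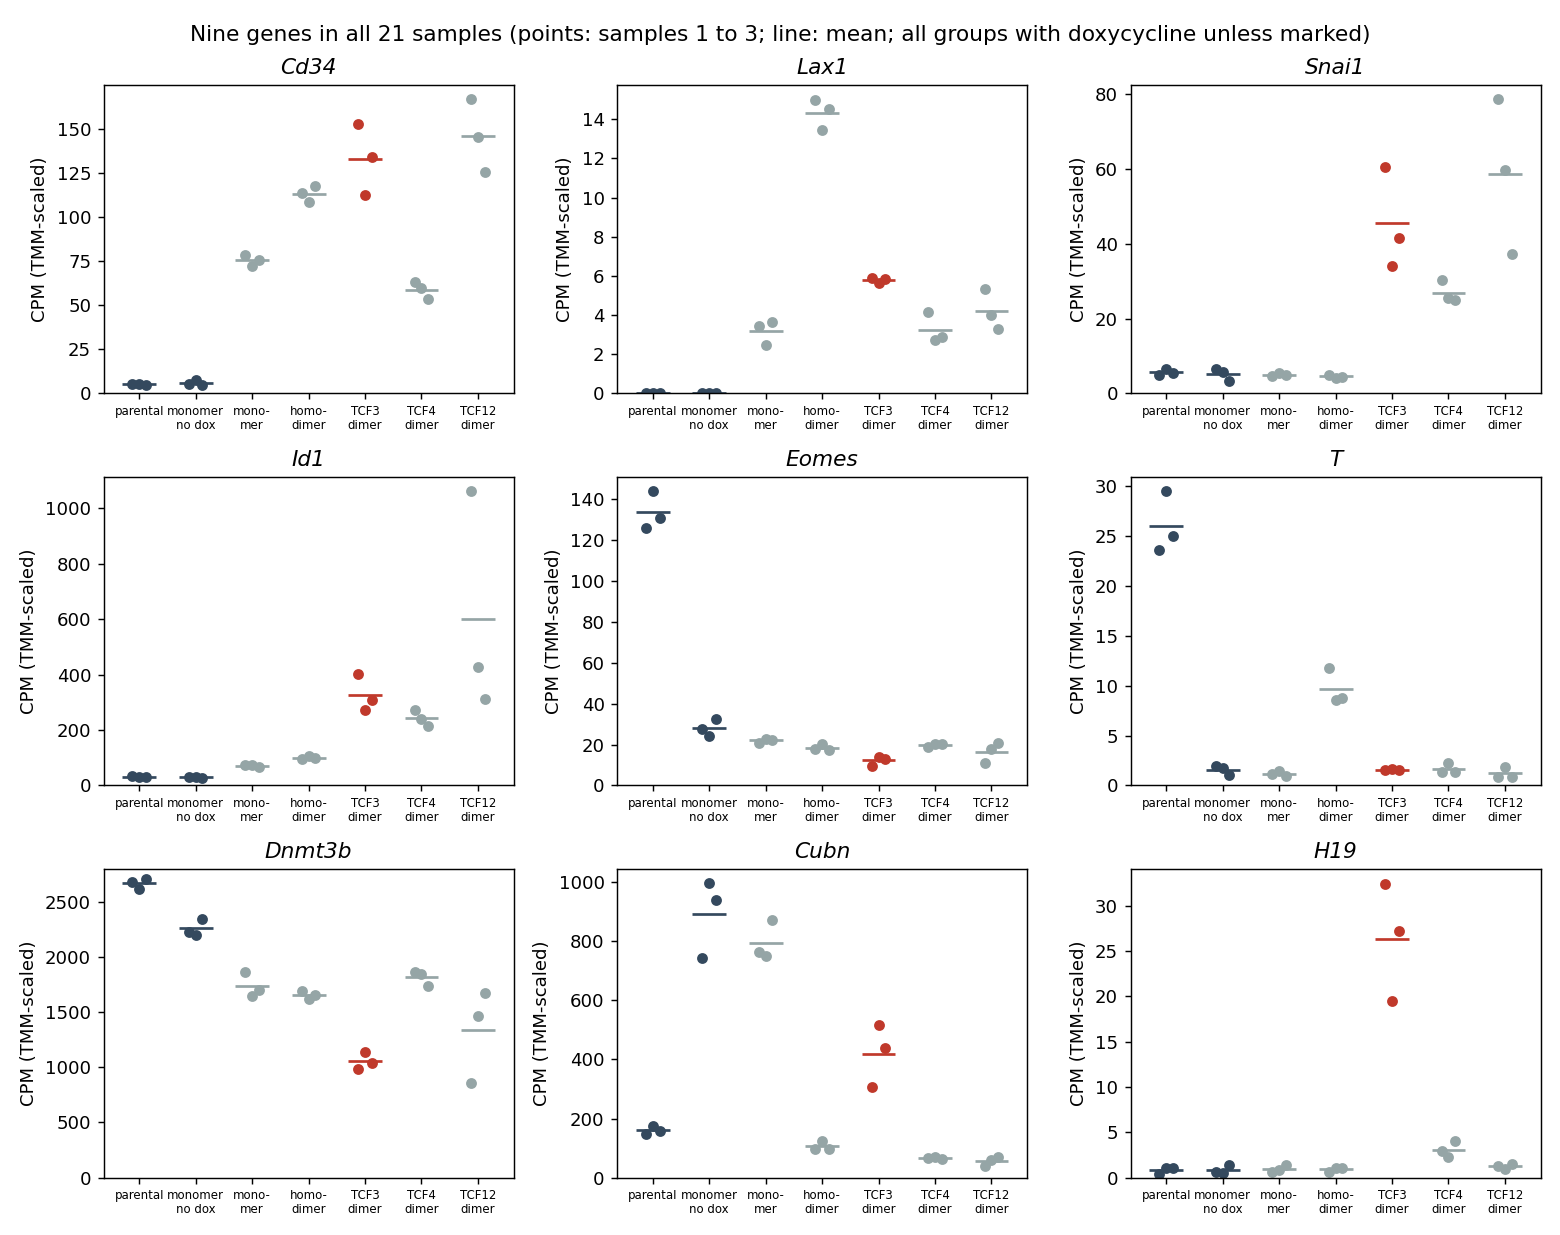
Level of 9 genes (y axis, CPM, starting at 0) in the 7 groups (x axis); points are the 3 samples of a group and lines their mean, with the TCF3 dimer line in red and both controls in dark blue. Cd34, Lax1, Snai1 and Id1 are high in the TCF3 dimer samples and low in both controls, T is high in the parental line and not in the uninduced monomer line, Cubn is higher than in the parental line and lower than in the uninduced monomer line, and H19 is high in the TCF3 dimer samples.

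Factors of lateral and cardiac mesoderm were higher: 15 of the 19 tested (of 27 listed) rose, 12 of them at least 2-fold, and none fell (1 did without TCF3 dimer sample 1). Members with almost no parental counts, Meox2 and Hand2 among them, passed the filter on low counts through the dimer samples alone. Such members could be called only as higher, so these counts describe the list and are no test of it. Hand1, a bHLH factor of the heart and extraembryonic mesoderm, stood at 0.436, 0.434 and 0.202 CPM in the parental and 7.19, 2.56 and 3.66 CPM in the dimer samples (3.62 ± 0.47). Isl1, a LIM homeobox factor of the second heart field, rose from 0.545, 0.434 and 0.606 to 9.75, 4.50 and 5.37 CPM (3.59 ± 0.37). Both genes separated the groups fully, at levels of a few CPM and with dimer sample 1 the highest. Meox2, a homeobox factor of muscle and vessels, was at 0 in the parental samples and at 3.14, 2.12 and 2.12 CPM in the dimer samples, at least 23.5-fold higher. Hand2 had 57 counts in the dimer samples against 2 in the parental samples, a ratio of 22.8 with a 95% counting interval from 6.03 to 193. Prrx2 rose from 2.55 ± 0.304 to 18.5 ± 5.25 CPM (2.85 ± 0.21) and Tbx2 from 0.246 ± 0.0493 to 2.70 ± 1.03 CPM (3.38 ± 0.44). Pdgfrb, a growth factor receptor of mural cells and mesenchyme, rose from 5.56, 6.18 and 6.36 to 30.8, 18.98 and 22.3 CPM (1.98 ± 0.16). The 4 tested members that did not pass were Tbx20 (-0.23), Msx1 (-0.40), Aplnr (0.00) and Mab21l2 (-0.35).

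The second control separated these mesoderm genes further. Against the uninduced monomer line 13 of 20 tested members were higher and 2 lower, with or without its sample 1. Hand1 (3.39), Isl1 (3.81), Prrx2 (2.97) and Pdgfrb (2.48) were higher than in both controls. Pdgfra, a receptor of early mesoderm and primitive endoderm, stood at 8.39, 9.76 and 9.99 CPM in the parental, 40.5, 50.4 and 40.8 CPM in the uninduced monomer and 44.3, 42.02 and 42.5 CPM in the TCF3 dimer samples. It was raised against the parental line (2.18 ± 0.09), and its difference from the uninduced monomer line did not pass (-0.02, adjusted p = 0.863). Gata4 and Gata6, zinc-finger factors shared by cardiac mesoderm and endoderm, were the 2 members that were higher than in the parental line (0.95 and 1.15) and lower than in the uninduced monomer line (-0.94 and -0.64).

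Ligands and feedback genes of the BMP pathway rose in most cases, 15 of 21 tested, 13 at least 2-fold, and 2 fell. BMPs are secreted signals that act through SMAD proteins and induce Id genes. Bmp7 stood at 3.05, 3.90 and 3.73 CPM in the parental and 48.6, 35.3 and 35.7 CPM in the dimer samples (3.47 ± 0.15, adjusted p = 5.69e-14), and Bmp4 rose from 4.91, 3.25 and 5.25 to 20, 17.4 and 18.3 CPM (2.04 ± 0.14). Every dimer sample was above every parental sample for both ligands. Gdf10, a ligand of the wider family, had 128 counts against 2, a ratio of 51.2 with an interval from 13.9 to 427. Among the inhibitors and effectors, Smad6 rose from 2.20 ± 0.552 to 10.01 ± 3.84 CPM (2.18 ± 0.26) and Smad9 from 0.315 ± 0.179 to 3.35 ± 0.748 CPM (3.34 ± 0.38). Smad7, an inhibitor shared with the TGF-beta pathway, fell from 74.2 ± 1.08 to 44.1 ± 2.15 CPM (-0.76 ± 0.058), and the secreted antagonist Chrd fell as well (-0.81 ± 0.20). Bmp7, Bmp4, Smad6 and Smad9 were also higher than in the uninduced monomer line (4.25, 0.91, 3.08 and 3.42), whereas Bmper, a secreted BMP regulator that rose against the parental line (1.78), did not pass there (-0.01, adjusted p = 0.966).

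Markers of blood and endothelium rose in 14 of 16 tested cases (of 20 listed), 8 of them at least 2-fold, and none fell. Their summed level was 66.2 to 68.4 CPM in the parental samples and 226.8 to 280.5 CPM in the TCF3 dimer samples, of which Cd34 alone took 133 CPM on average. Kdr, the VEGF receptor of the earliest endothelial progenitors, rose from 2.18, 1.19 and 3.13 to 17.03, 12.98 and 16.2 CPM (2.80 ± 0.20). Fli1, an ETS factor of blood and endothelium, rose from 0.218, 0.108 and 0.404 to 7.27, 3.80 and 4.07 CPM (4.28 ± 0.43). Sox18 (2.33 ± 0.26), Tie1 (2.44 ± 0.46) and Etv2 (1.34 ± 0.17), factors and a receptor of vessel formation, were also higher. Dimer and parental samples did not overlap in these 5 genes, as in 29.5% of all genes on this side. Among the defining blood markers Hba-x, an embryonic globin, was at 0 counts in both groups and Hbb-bh1 and Gata1 were too low to be tested, while Flt1 (0.06, adjusted p = 0.727) and Hhex (0.33) did not pass.

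Matrix genes of mesenchyme rose in 21 of 27 tested cases, 15 at least 2-fold, with a list median of 1.07, and collagens in 14 of 17, with a median of 1.40. Col3a1, a fibrillar collagen of soft tissue, stood at 2.18, 4.66 and 5.35 CPM in the parental and 27.3, 26.7 and 34.7 CPM in the dimer samples (2.84 ± 0.17). Igfbp4, a secreted IGF-binding protein, rose from 22.4, 20.5 and 22 to 135, 102 and 117 CPM (2.43 ± 0.09). Both genes separated the groups fully. Lox, which crosslinks collagen and elastin, rose from 0.844 ± 0.262 to 7.47 ± 2.11 CPM (3.12 ± 0.29) and Fbn2, a microfibril protein, from 3.86 ± 1.11 to 26.2 ± 2.13 CPM (2.74 ± 0.14). Col1a1 (0.98 ± 0.12), Col1a2 (1.64 ± 0.16), Col5a1 (1.40 ± 0.10) and Col6a1 (1.49 ± 0.13) rose by less. Col2a1, the collagen of cartilage and notochord, fell from 21.4 ± 2.94 to 7.91 ± 1.41 CPM (-1.45 ± 0.13). Of the same lists, 17 matrix genes and 11 collagens were higher than in the uninduced monomer line, as many as without its sample 1.

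Cell adhesion and cytoskeleton genes of mesenchyme moved both ways, with 9 of 19 higher and 6 lower. Cdh11, a cadherin of mesenchyme, rose from 10.2, 11.4 and 11.6 to 66.8, 43.2 and 54.4 CPM (2.29 ± 0.13), and the intermediate filament gene Vim rose from 103, 89.1 and 97.5 to 289, 202 and 251 CPM (1.35 ± 0.086). N-cadherin, Cdh2, differed by 0.17 ± 0.069 (adjusted p = 0.0472, and 0.323 in the fit on all 21 samples) from the parental line and by 1.08 from the uninduced monomer line. The contractile genes went the other way. Tagln fell from 18.4 ± 0.621 to 5.92 ± 0.554 CPM (-1.64 ± 0.12), Cnn1 from 17.9 ± 2.25 to 6.05 ± 0.413 CPM (-1.57 ± 0.13) and Myl9 from 6.15 ± 1.63 to 2.17 ± 0.582 CPM (-1.51 ± 0.23). Among proteases, Mmp2 rose from 69.8, 62.99 and 60.95 to 187, 165 and 177 CPM (1.44 ± 0.059), 1 of 10 higher genes among 15 tested metalloproteases and inhibitors (6 with DESeq2).

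Axon guidance genes held some of the largest differences. Of 32 tested semaphorin, plexin, Slit and netrin genes 13 were higher, 12 of them at least 2-fold, and 9 were lower. Plxna2, a semaphorin receptor, stood at 7.19, 7.37 and 8.78 CPM in the parental and 141, 115 and 128 CPM in the dimer samples (4.02 ± 0.096, adjusted p = 3.65e-18). Unc5c, a netrin receptor (3.07 ± 0.35), and the semaphorins Sema6d (2.44 ± 0.20) and Sema5b (2.35 ± 0.21) were also higher, while Sema3c (-1.46 ± 0.21) and Sema6a (-1.06 ± 0.049) were lower. Sema6a did not differ from the uninduced monomer line beyond the threshold (0.07, adjusted p = 0.308). In the Notch pathway 8 of 17 tested genes were higher and 5 lower (3 with DESeq2 and in the fit on all 21 samples), among them the ligand Dll1 (1.25 ± 0.16), the receptor Notch1 (1.12 ± 0.09) and the effectors Heyl (3.73 ± 0.47) and Hey2 (2.76 ± 0.35) on the higher side.

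Other bHLH and HLH factors included 13 of 26 tested that were higher and 7 that were lower (4 in the fit on all 21 samples). Bhlhe22, a bHLH factor, rose from 0.872, 0.434 and 1.01 to 21.9, 12.1 and 14.97 CPM (4.36 ± 0.29). Ebf2, an early B-cell factor family member of mesenchyme and neurons, had 157 counts against 2, a ratio of 62.8 with an interval from 17.1 to 523. Neurod4, a neurogenic bHLH factor, had 49 counts against 2, a ratio of 19.6 with an interval from 5.15 to 166. Among 12 tested neural markers 4 were higher and 3 lower, where 24.8% and 24.3% of all tested genes were. At least 2-fold, 3 were higher and 0 lower, where 5.64% and 2.66% of all tested genes were. Against the uninduced monomer line 7 of 12 were higher and 2 lower, 5 and 2 of them at least 2-fold. Pax3, a neural crest and myotome factor, rose from 0.218, 0.108 and 0.606 to 7.19, 3.88 and 4.55 CPM (3.98 ± 0.40) and Zic1 from 2.79 ± 0.339 to 12.5 ± 2.33 CPM (2.15 ± 0.18). Pax6 did not pass (0.40, adjusted p = 0.147), and Sox1 was too low to be tested.

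**Figure D3:**
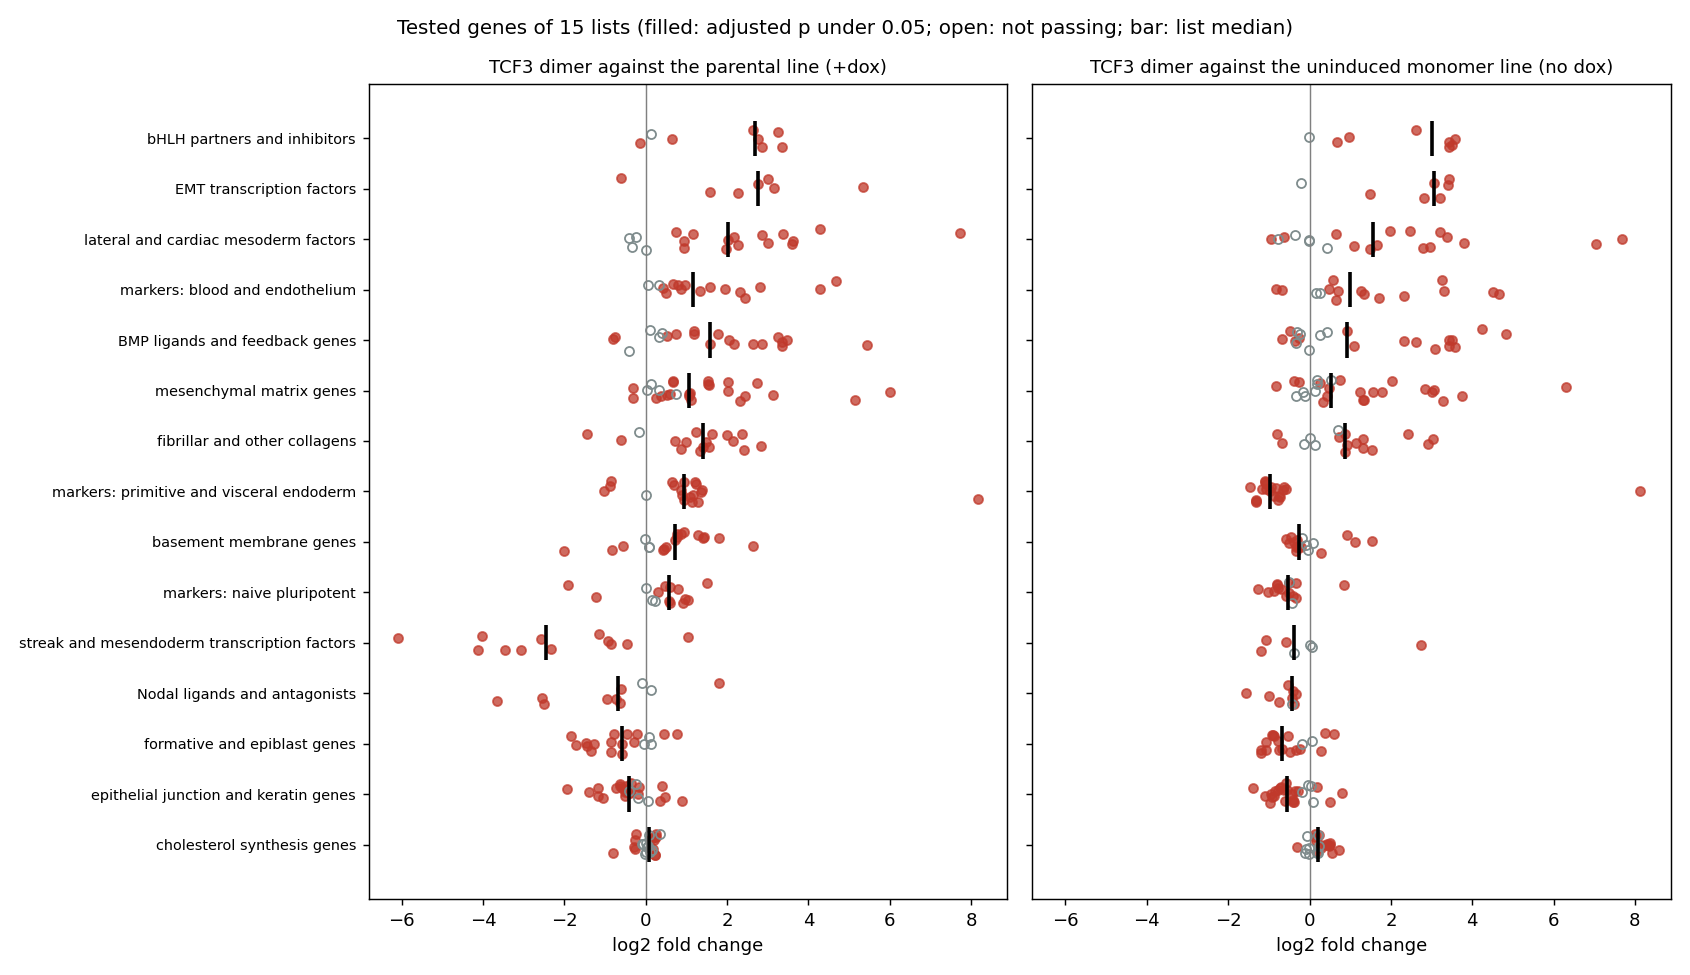
Log2 fold change (x axis) of each tested gene of 15 lists (y axis) against the parental line and against the uninduced monomer line; filled points passed, open points did not, and black bars are list medians. Lists of Id, EMT, mesoderm and matrix genes lie to the right in both panels, endoderm markers lie to the right against the parental line and to the left against the uninduced monomer line, and streak factors lie far to the left only in the left panel.

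Transcription factors of the primitive streak and mesendoderm, the region of the embryo where mesoderm and endoderm form, were lower in 11 of 12 tested cases (of 18 listed), 8 at least 2-fold, where 2.66% of all genes were that much lower. Members with almost no dimer counts, Evx1 among them, passed the filter on low counts through the parental samples alone. Such members could be called only as lower, so these counts describe the list and are no test of it. Eomes, a T-box factor of the streak, stood at 126, 144 and 130.4 CPM in the parental and 9.59, 14.1 and 13.1 CPM in the dimer samples (-3.46 ± 0.088, adjusted p = 6.16e-18). T, the gene of Brachyury, fell from 23.6, 29.5 and 25.03 to 1.57, 1.68 and 1.54 CPM (-4.03 ± 0.15), and Mixl1, a homeobox factor of the streak, from 14.3, 19.2 and 19.3 to 2.56, 1.94 and 1.87 CPM (-3.05 ± 0.17). The highest dimer sample of each gene was far below the lowest parental sample. Evx1, a homeobox factor of the posterior streak, had 3 counts in the dimer samples and 184 in the parental samples, a ratio of 76.7 in favour of the parental line with an interval from 25.8 to 375. Sp5, a Wnt target (-4.13 ± 0.26), Gsc, a factor of the organiser (-2.57 ± 0.28), and Nkx1-2 (-2.33 ± 0.26) were lower too, and Tbx3 alone was higher (1.03 ± 0.12).

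The second control stood lower for several of these factors. The uninduced monomer line already had low levels of T (1.95, 1.78 and 1.07 CPM) and Mixl1 (1.63, 1.88 and 2.73 CPM), and the differences of the TCF3 dimer line from it did not pass (0.06, adjusted p = 0.874, and 0.01, adjusted p = 1). Eomes was lower than in both controls, with 27.7, 24.2 and 32.4 CPM in the uninduced monomer samples and a difference of -1.18 ± 0.13 from them. In that comparison, 7 of the 18 listed factors passed the filter on low counts, of which Eomes, Foxa2 (-1.07) and Tbx3 (-0.57) were lower and Sp8 was higher (2.75). Without sample 1 of that line 9 were tested, of which 4 were lower and 1 higher. Eomes is also a marker of trophoblast, and the summed level of the 13 trophoblast markers was 137.8 to 156.7 CPM in the parental, 34.8 to 43.4 CPM in the uninduced monomer and 22.1 to 27 CPM in the dimer samples. Eomes made up this difference: the other 12 markers summed to 12.1 to 12.9 CPM in the parental, 10.6 to 13.3 CPM in the uninduced monomer and 12.2 to 13.9 CPM in the dimer samples. Elf5, Tpbpa and Prl3d1 of that list were at 0 counts in the dimer samples.

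Signals of the streak divided in the same way. Fgf8, a streak FGF, stood at 22.6, 27.5 and 26.2 CPM in the parental, 4.23, 3.76 and 3.22 CPM in the uninduced monomer and 0.661, 0.971 and 0.488 CPM in the dimer samples, with differences of -5.17 ± 0.19 and -2.35 ± 0.28. Nodal, the TGF-beta family ligand that patterns the epiblast, stood at 81.8, 86.1 and 75.99 CPM in the parental, 47.02, 43.6 and 41.4 CPM in the uninduced monomer and 10.6, 15.7 and 17.2 CPM in the dimer samples (-2.50 ± 0.10 and -1.57 ± 0.12). Both ligands were lower than in both controls, with no overlap between groups. Wnt3, the ligand needed for streak formation, stood at 16.5, 16.8 and 15.4 CPM in the parental and 0.827, 1.59 and 0.813 CPM in the dimer samples (-3.93 ± 0.19), yet did not pass against the uninduced monomer line (-0.32, adjusted p = 0.523). Wnt8a was lower than in both (-4.37 ± 0.21 and -1.05 ± 0.32). Axin2, a feedback gene of Wnt signalling, was lower than in the parental line (-1.11 ± 0.083) and higher than in the uninduced monomer line (0.94 ± 0.11). Notum, a secreted Wnt deacylase, was higher than in both (3.67 ± 0.19 and 2.03 ± 0.16). Of the 18 tested Wnt ligands and targets 5 were higher and 7 lower (4 with DESeq2) than in the parental line, and of the 10 tested Nodal ligands and antagonists 1 was higher and 7 lower. Over all tested genes 24.8% were higher and 24.3% lower, and the share of higher Wnt genes lay near that background.

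Fst, an activin antagonist, fell from 87.3, 112 and 104 to 8.02, 9.18 and 7.16 CPM (-3.65 ± 0.10) and differed by -0.52 ± 0.13 from the uninduced monomer line. Apln, the apelin ligand, fell from 21.8, 22.4 and 19.8 to 3.14, 3.18 and 3.17 CPM (-2.76 ± 0.13), while its receptor gene Aplnr did not pass. Tnfrsf19, a TNF receptor family member (-3.03 ± 0.13), Pcdh8, a protocadherin of paraxial mesoderm (-2.62 ± 0.15), and Cx3cl1, a membrane-bound chemokine (-2.55 ± 0.16), complete the 15 genes named for the largest falls. These 3 were lower than in the uninduced monomer line too (-0.76, -1.57 and -0.96).

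Genes of the formative epiblast, the state between naive stem cells and gastrulation, were lower in 14 of 19 cases, 6 at least 2-fold, and higher in 2. Dnmt3b, a de novo DNA methyltransferase, stood at 2683, 2612 and 2702 CPM in the parental and 981, 1139 and 1041 CPM in the dimer samples (-1.35 ± 0.046, adjusted p = 5.88e-16). Fgf5, the classical epiblast marker, fell from 180.3, 169 and 170.2 to 41.7, 55.4 and 48.6 CPM (-1.85 ± 0.068), and Zic2, a zinc-finger factor, from 202, 203 and 207 to 69.5, 73.6 and 78.98 CPM (-1.47 ± 0.051). None of these genes overlapped between the groups. Pim2 (-1.71 ± 0.054), Slc7a3, an arginine transporter (-1.44 ± 0.07), and Car4 (-1.28 ± 0.08) were the other 3 at least 2-fold lower. Otx2 did not pass (0.14, adjusted p = 0.0577). Compared with the uninduced monomer line 14 of 19 were lower again, Dnmt3b by a log2 fold change of -1.08 ± 0.055 and Fgf5 by -1.08 ± 0.079.

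General pluripotency markers were lower in 7 of 12 cases, none at least 2-fold, and 11 of 12 were lower than in the uninduced monomer line. Pou5f1, the core pluripotency factor, stood at 628, 564 and 564 CPM in the parental and 396, 437 and 426 CPM in the dimer samples (-0.49 ± 0.048). The 12 markers summed to 3393 to 3462 CPM in the parental and 2728 to 2940 CPM in the dimer samples. L1td1 fell most of the list (-0.89 ± 0.046), and Dppa5a rose (0.75 ± 0.041). Nanog, grouped with the naive markers, fell from 211, 218 and 202 to 47.1, 65.3 and 58.4 CPM (-1.90 ± 0.073).

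Genes of epithelial junctions and keratins were lower in 19 of 27 cases and higher in 4, with a list median of -0.42. Falls of at least 2-fold were found for Cldn3 (-1.93 ± 0.21) and Cldn7 (-1.18 ± 0.086), claudins of the tight junction, Marveld3, another tight junction protein (-1.38 ± 0.12), Rab25, a GTPase of epithelial membrane traffic (-1.17 ± 0.12), and Crb3, a polarity protein (-1.04 ± 0.11). Cdh1, the gene of E-cadherin, stood at 1022, 1012 and 1023 CPM in the parental and 706, 767 and 721 CPM in the dimer samples (-0.49 ± 0.04). That difference was below 2-fold, and the gene did not pass against the uninduced monomer line (-0.05, adjusted p = 0.431). Epcam, an epithelial adhesion protein, was lower than in both controls (-0.49 ± 0.051 and -0.40 ± 0.05). The members that rose were Cldn4 (0.90 ± 0.09), Cdh3 (0.48 ± 0.054), Krt8 (0.39 ± 0.077) and Dsp (0.36 ± 0.077), the last 2 with adjusted p of 0.0707 and 0.0717 in the fit on all 21 samples. In the comparison with the uninduced monomer line 20 of 27 were lower, 2 at least 2-fold (Rab25 and Crb3).

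Markers of primitive and visceral endoderm, the extraembryonic layer that covers embryoid bodies, took opposite directions against the 2 controls. Against the parental line 15 of 19 tested were higher, 9 at least 2-fold, and 3 lower, with a median of 0.95. Against the uninduced monomer line 19 of 20 were lower, 9 at least 2-fold, and 1 higher, with a median of -0.96 (-0.98 without its sample 1). Cubn, an endocytic receptor of visceral endoderm, stood at 148, 176 and 157 CPM in the parental, 745, 996 and 940 CPM in the uninduced monomer and 306, 516 and 438 CPM in the dimer samples, which lay between the controls without overlap. Its difference was 1.38 ± 0.11 from the former and -1.07 ± 0.13 from the latter. Sox7 (1.23 and -0.73) and Amn, the partner of cubilin (1.29 and -0.75), showed the same 2 directions. Foxa2 (-0.84 and -1.07), Ttr (-1.02 and -1.47) and Apob (-0.88 and -1.31) were lower than in both controls. Alb, the albumin gene, was at 0 in the samples of both controls and at 4.71, 1.85 and 3.42 CPM in the dimer samples, at least 32-fold higher than in the parental line. The summed level of the 22 markers was 1227 to 1316 CPM in the parental, 3538 to 4355 CPM in the uninduced monomer and 1549 to 2250 CPM in the dimer samples, and only Alb was at 0 counts in the controls.

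Basement membrane genes and naive pluripotency markers moved in the same pattern. Of 19 basement membrane genes 13 were higher and 3 lower than in the parental line, while 4 of 18 were higher and 10 lower than in the uninduced monomer line. Lama1, a laminin chain, stood at 130.4, 127 and 139 CPM in the parental, 569.6, 660.1 and 598 CPM in the uninduced monomer and 383, 511 and 491 CPM in the dimer samples. Col4a1, a chain of type IV collagen, had means of 253, 874 and 623 CPM in that order. Among naive markers 10 of 15 tested were higher and 2 lower than in the parental line, and 1 of 16 was higher and 13 lower than in the uninduced monomer line. Zfp42, the gene of REX1, stood at 74.1, 93.99 and 85.98 CPM in the parental, 231, 235 and 219 CPM in the uninduced monomer and 111, 140 and 138 CPM in the dimer samples, and Esrrb, an orphan nuclear receptor, had means of 44.6, 99.2 and 77.7 CPM. Parietal endoderm markers were higher than in the parental line in 8 of 10 cases and lower than in the uninduced monomer line in 6.

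The 3 dimer samples differed among themselves along these groups. Sample 1 was the highest of the 3 in 6 of 7 tested EMT factors and 16 of 19 mesoderm factors, and the lowest in 16 of 19 endoderm markers and all 15 tested naive markers. Among all tested genes it was the highest in 36.2% and the lowest in 34.7%. Summed endoderm markers were at 1549 CPM in the lowest and 2250 CPM in the highest dimer sample, and summed naive markers at 590.5 and 728.5 CPM. The part of these markers in the values of the other lists was not tested.

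**Figure D4:**
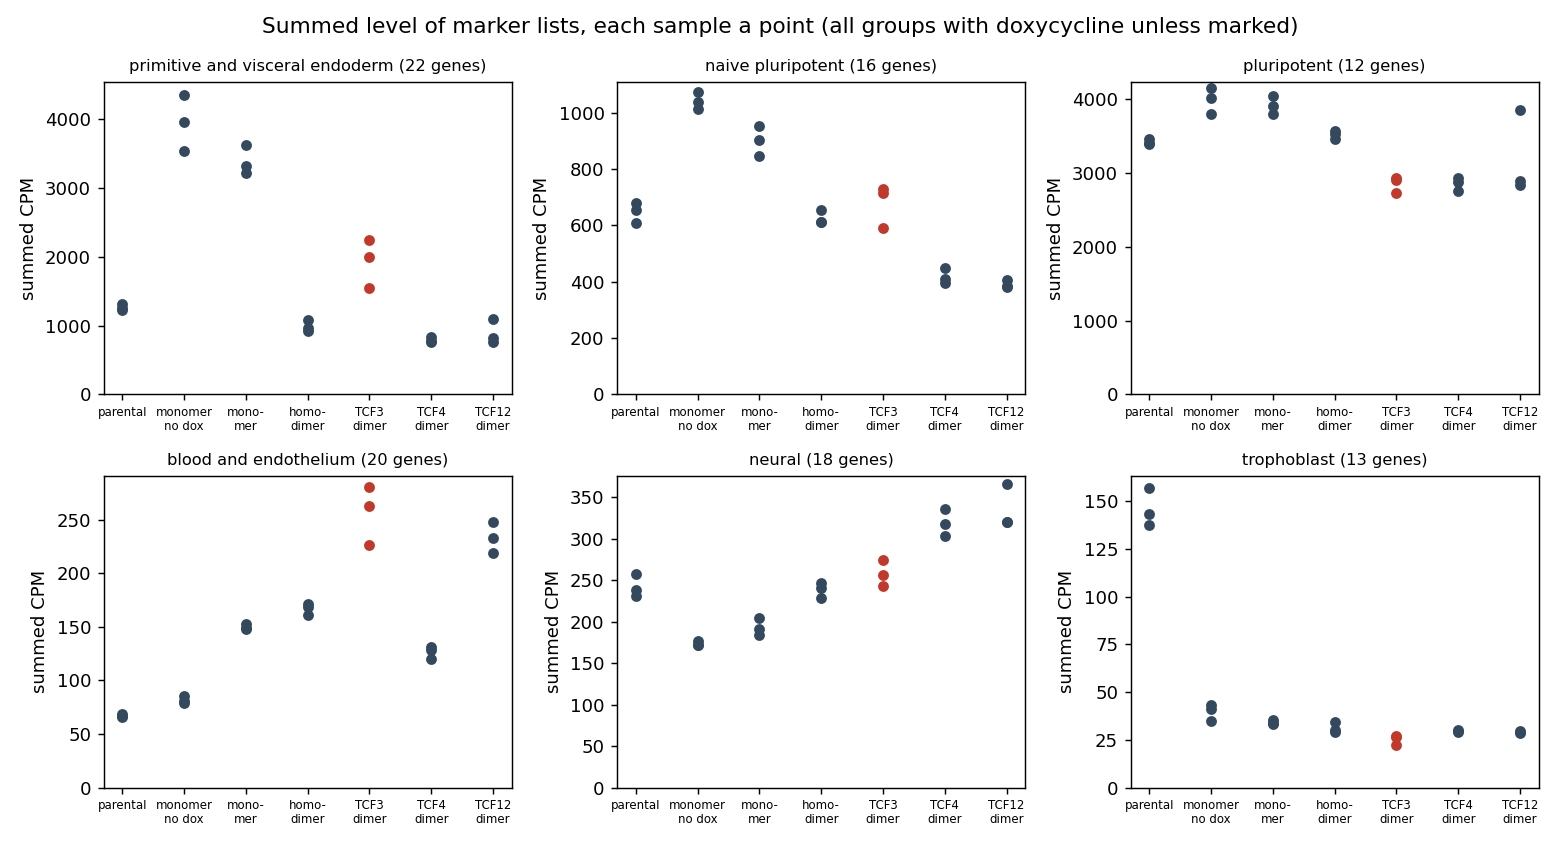
Summed CPM (y axis, starting at 0) of 6 marker lists in each sample of the 7 groups (x axis), with the TCF3 dimer line in red. The TCF3 dimer samples lie between both controls for endoderm markers (1549 to 2250 CPM) and above both for blood and endothelium markers (226.8 to 280.5 CPM).

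H19, an imprinted non-coding RNA read from the maternal copy (chr7:142575529-142578143, minus strand), stood at 0.436, 1.08 and 1.11 CPM in the parental and 32.4, 19.4 and 27.2 CPM in the dimer samples (4.87 ± 0.26, adjusted p = 8.64e-13). Its mean in the other 5 groups ran from 0.847 CPM in the uninduced monomer line to 3.08 CPM in the TCF4 dimer line, so every TCF3 dimer sample was above every other sample of the series. The neighbouring imprinted gene Igf2, read from the paternal copy, differed from the parental line by 0.42 ± 0.10 and did not pass against the uninduced monomer line (0.04, adjusted p = 0.748). Peg13, another imprinted non-coding RNA, had 65 counts in the dimer samples against 2 in the parental samples, a ratio of 26 with an interval from 6.92 to 219. Peg10 rose from 207, 269 and 249.9 to 467, 462 and 532 CPM (0.99 ± 0.068), and Peg3 from 151 ± 5.61 to 341 ± 35.7 CPM (1.17 ± 0.059). Grb10, a growth-restraining adaptor, fell from 308, 293 and 304 to 135, 135 and 136 CPM (-1.17 ± 0.043) and was lower than in the uninduced monomer line too (-0.82 ± 0.047). The maternally read genes Meg3 (-0.74 ± 0.063), Rian (-0.63 ± 0.049) and Mirg (-0.94 ± 0.085), of 1 cluster, were lower than in the parental line and did not pass against the uninduced monomer line (-0.02, 0.13 and -0.13). In all, 13 of 29 tested imprinted genes were higher and 8 lower.

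Genes of chromosome 11 lay above the other genes. The 1074 tested genes there had a median log2 fold change of 0.19 against -0.016 for the others, and 47.2% of them passed as higher against 22.9% elsewhere. The median was 0.21 against the uninduced monomer line, 0.20 against the TCF4 dimer line and 0.15 against the TCF12 dimer line. At least 2-fold rises were less skewed, at 7.91% on chromosome 11 and 5.51% elsewhere. Of the 15 named higher genes 2 lie on this chromosome (Cygb and Serpinf1), as does 1 of the 15 lower genes (Wnt3). Without its members on chromosome 11 the median of the blood and endothelium list was 1.46 in place of 1.16, and those of the matrix list (4 members there) and the collagen list (2) were 1.07 and 1.40 with or without them. The EMT list has no member on this chromosome. The part of chromosome 11 in single values was not tested.

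**Figure D5:**
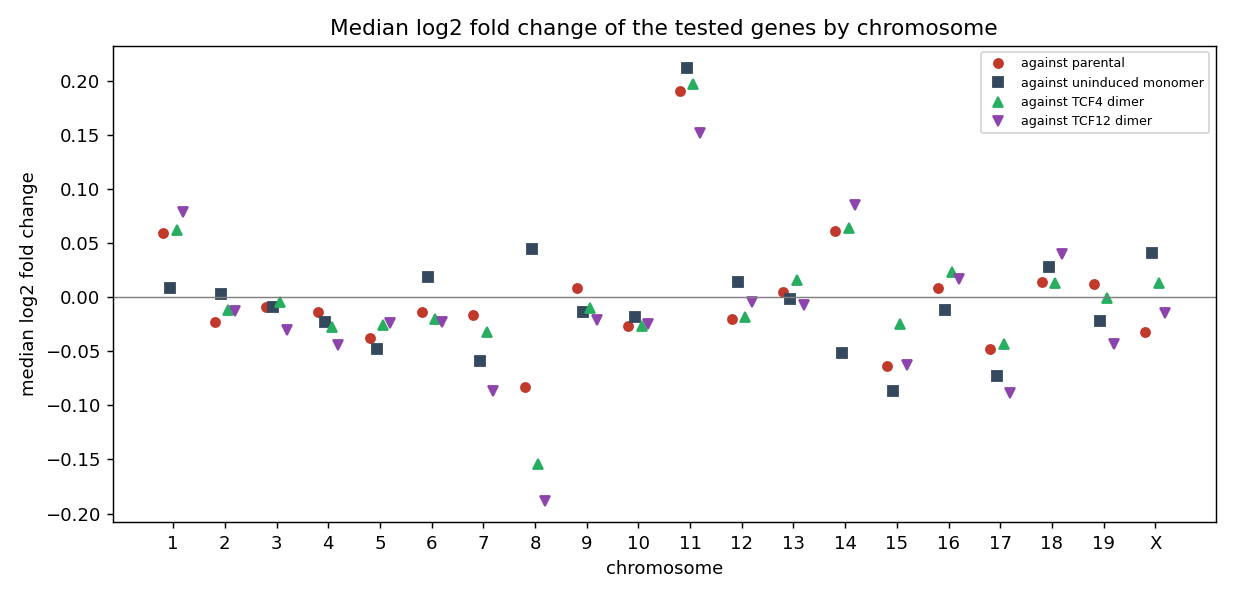
Median log2 fold change (y axis) of the tested genes on each chromosome (x axis) in the 4 comparisons of the TCF3 dimer line. Chromosome 11 lies highest in all 4, between 0.15 and 0.21, and chromosome 8 lies lowest against the parental, TCF4 dimer and TCF12 dimer lines.

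Against the TCF4 dimer line 2980 of 13812 genes were higher (21.6%) and 2680 lower (19.4%), of which 543 (3.93%) and 135 (0.977%) changed at least 2-fold, together 678 (4.91%). Endoderm markers were higher in 18 of 19 cases, with a median of 2.17, and naive markers in 14 of 16. The genes named for the largest rises were Tcf23, a bHLH protein (3.42 ± 0.22), H19 (3.05 ± 0.18), Nostrin (3.04 ± 0.26), Sox7 (2.99 ± 0.15) and Tfec (2.92 ± 0.20). Tcf23 stood at 9.26, 12.8 and 9.76 CPM in the TCF3 dimer and 1.18, 1.20 and 0.669 CPM in the TCF4 dimer samples, and at 22.4 CPM on average in the uninduced monomer line. EMT factors were higher in 6 of 7 cases, 2 of them at least 2-fold (Snai2, 1.34, and Zeb1, 1.30), while Snai3 was lower (-0.57). The 4 Id genes were higher by 0.43 to 0.98. The largest falls were those of Tcf4 itself (-2.66 ± 0.06), Myl9, a myosin light chain (-1.73 ± 0.19), Klhl14 (-1.69 ± 0.16), Hprt (-1.69 ± 0.11) and Eef1a2 (-1.62 ± 0.20).

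Against the TCF12 dimer line 223 of 13730 genes were higher (1.62%) and 13 lower (0.0947%), with 180 (1.31%) and 7 (0.051%) at least 2-fold. Without sample 1 of that line, 1735 of 14023 genes were higher (12.4%) and 1359 lower (9.69%), with 399 (2.85%) and 59 (0.421%) at least 2-fold. The genes named for the largest rises were H19 (4.40 ± 0.28), Aqp8 (3.19 ± 0.17) and Cubn (2.90 ± 0.29), both genes of visceral endoderm, Klb, an FGF co-receptor (3.15 ± 0.25), and Serpinb6c (2.91 ± 0.41). The falls named were those of Zfp467, a zinc-finger gene (-1.26 ± 0.18), Snord52, a small nucleolar RNA (-1.11 ± 0.17), Cyp2b23, a cytochrome P450 (-1.07 ± 0.19), Fgf15, an FGF ligand (-1.004 ± 0.142), and 1 unnamed transcript. None of the 5 falls passed under the replicate block or when any sample other than TCF12 dimer sample 1 was left out, and of the 5 rises only H19 and Aqp8 passed in each of those fits. Without sample 1 endoderm markers were higher in 16 of 19 cases and naive markers in 13 of 16, while only 1 of 7 EMT factors (Twist1, 0.34) and 1 of 8 Twist, E-protein and Id genes passed. Cd34 stood at 167, 145 and 126 CPM in the TCF12 dimer samples and differed from the TCF3 dimer line by -0.02 without sample 1 (adjusted p = 0.916).

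The genes named for the largest falls against the uninduced monomer line were Slc30a3, a zinc transporter (-2.25 ± 0.22), Hdc, histidine decarboxylase (-2.03 ± 0.27), Pou4f2, a POU-domain factor (-1.87 ± 0.20), Muc13, an epithelial mucin (-1.72 ± 0.16), and 1 predicted gene. Slc30a3 stood at 7.65, 9.72 and 7.33 CPM in the uninduced monomer and 1.57, 2.38 and 1.22 CPM in the dimer samples, without overlap. Several lists held at most 1 gene at least 2-fold different in the comparison with the parental line. Over all tested genes 24.8% were higher than in the parental line and 24.3% lower. Of 24 cholesterol synthesis genes 8 were higher (1 in the fit on all 21 samples, 4 with DESeq2, and 5 without TCF3 dimer sample 1, parental sample 2 or parental sample 3) and 5 lower, with a median of 0.074 and none at least 2-fold different. The p53 targets (5 higher and 6 lower of 18) and the YAP and TEAD targets (5 and 5 of 16) likewise held no gene at least 2-fold different. Glycolysis and hypoxia genes were higher in 11 and lower in 6 of 29 cases (7 and 2 in the fit on all 21 samples), with P4ha1, a collagen prolyl hydroxylase, the single one at least 2-fold higher (1.42 ± 0.065). P4ha1 did not pass against the uninduced monomer line (0.08, adjusted p = 0.26).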

How the data were processed

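RNA was measured with a TruSeq mRNA kit. Per the submitters' processing notes, FastQC, TopHat2, HTSeq and the mm10/GRCm38 build were used, with no versions or roles. The values are read counts per gene symbol, deposited by the authors as 1 table per sample; pooling, filters and the strand setting are not given in the sources used here. A set of 25 symbols had become dates in all but 3 of the files, and these rows were joined by position.

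The counts were fitted with edgeR 4.0.16 in R 4.3.3 (quasi-likelihood test, TMM factors, filterByExpr with a minimum count of 10 and a minimum total of 15), for each comparison on its 6 samples alone, with no covariate and Benjamini-Hochberg adjustment over all genes tested. CPM used TMM factors over all 21 samples. The test was checked on simulated counts.

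Named genes were the 15 higher and 15 lower with the largest change among those passing, not overlapping between groups and with at least 5 CPM in the higher group; 5 each way in the other comparisons; Twist1, Tcf3, Tcf4, Tcf12 and Hprt; and members of 40 gene lists. A gene that met this rule and a list member are not reported here by name. The members and lists were chosen with earlier results of these data known. As alternatives, DESeq2 1.42.0 replaced edgeR, library size alone or RLE factors replaced TMM, the filter on low counts was changed or dropped, all 21 samples were fitted together, the replicate number served as a block, and each sample was left out in turn. A fit without TCF12 dimer sample 1, one without chromosome 11 and one on thinned counts were added after seeing the data. No 2 tables were identical. Deviations of same-numbered samples from their group means correlated weakly (from -0.082 to 0.094). With 3 samples per group such values cannot exclude a pairing, and the main fits use none. Depth per library is given with the results.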

Additional observations from a re-analysis of the deposited data

Results flagged for a closer look

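The TCF3 dimer and TCF4 dimer lines, whose constructs differ in the partner joined to TWIST1, differed at least 2-fold in 678 of 13812 genes (4.91%) by a test of the difference itself (edgeR's quasi-likelihood test). Of the 30 genes with the largest differences from the parental line, 11 were among them. Higher in the TCF3 dimer samples were H19 (log2 fold change 3.05), Serpinf1 (1.61), Cygb (1.48), Epha3 (1.35), Snai2 (1.34), Cd34 (1.18) and Tmem132c (1.04). Lower were Hprt (-1.69), Cx3cl1 (-1.32), Fgf8 (-1.26) and Tnfrsf19 (-1.07). The 30 genes were chosen for extreme values in the same TCF3 dimer samples, so neither their count nor their directions are read as separate evidence.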

How the results depend on the processing

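No named or listed gene changed direction against the parental line with a call in either fit under the alternatives run. Against the parental line, the counts of higher and lower genes stayed within 1.5 times of those given, except that 1719 genes were lower in the fit on all 21 samples, where 4057 genes passed in all against 6674; of the 1129 genes at least 2-fold different, 1090 were shared with that fit and 1038 with DESeq2. The replicate number as a block gave 3433 higher and 3360 lower genes. Leaving out 1 sample gave 3012 to 3254 higher and 2876 to 3097 lower genes. Library size as the only scaling gave 55.6% higher among the genes passing, in place of 50.5%. Against the uninduced monomer line, the 20 samples without TCF12 dimer sample 1 gave 3300 higher and 3570 lower genes, turning the balance from 52.2% to 48% higher. There, 1886 genes were lower in the fit on all 21 samples and 367 were at least 2-fold lower with no filter. Against the TCF4 dimer line these were 1131 and 219, with 1688 genes higher in the fit on all 21 samples. The comparison with the TCF12 dimer line depended on its sample 1. DESeq2 gave 422 higher and 100 lower genes, 22 at least 2-fold lower. With no filter 11 were at least 2-fold lower. The fit on all 21 samples gave 1390 higher and 1296 lower (402 and 68 at least 2-fold), and the 20 samples without TCF12 dimer sample 1 gave 1822 and 1785 (429 and 82). The replicate block gave 36 higher, all 36 at least 2-fold, and 0 lower. Leaving out 1 sample gave from 7 to 1735 higher, 0 to 1359 lower, 7 to 399 at least 2-fold higher and 0 to 59 at least 2-fold lower, the highest values being those without TCF12 dimer sample 1. Beyond that sample, the cause was not tested. Of the 34 genes named by rule against the parental line, only Tcf3 lost a call under any alternative, and Tcf4 gained one without parental sample 3; the genes named against the TCF12 dimer line that lost theirs are given with that comparison, and those named against the other two lines kept theirs wherever an adjusted p was given. Among all 631 named and listed genes tested against the parental line 81 lost it in the fit on all 21 samples, 51 with DESeq2 and 2 with the block.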
